A study of Mus musculus and Homo sapiens with 43 samples.

Results

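The genes described here are the fibroblast growth factor (FGF) ligands, their receptors and the genes that feed back on extracellular signal-regulated kinase (ERK), the kinase at the end of the pathway. They were chosen by name from the gene columns of the deposited tables: every Fgf gene with a number, Fgfr1 to Fgfr4, Fgfrl1, every Spry and Spred gene, Dusp4, Dusp6, Etv4 and Etv5. The rule found 38 of 36208 listed genes, made up of 22 ligands, 5 receptors and 11 feedback genes, of which 37 were among 35245 genes in the first table and 38 among 32231 in the second. All 22 Fgf genes are counted as ligands by name, though Fgf11 to Fgf14 are intracellular members of the family.

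An FGF ligand bound to heparan sulphate pairs its receptors on the cell surface, and the paired receptors switch on RAS, RAF, MEK and ERK in turn. ERK then raises transcription of its own brakes: Sprouty and Spred proteins act on the path to RAF, DUSP phosphatases strip phosphate from ERK, and the ETS factors Etv4 and Etv5 carry the response to target genes. In mouse embryonic stem cells this pathway, fed by the cells' own Fgf4, prepares exit from naive pluripotency, and a MEK inhibitor is used to hold it down.

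The study used the mouse embryonic stem cell line E14 and edits, made with CRISPR/Cas9, in Pcgf2 and Phc1, which encode subunits of Polycomb repressive complex 1. RNA-seq values were given as TPM, a gene's share of all transcripts in its library once transcript length is taken into account, in 24 libraries that form 12 groups of 2. All cells were grown in a medium with fetal bovine serum. Embryonic stem cells (ESC) had LIF, the MEK inhibitor PD0325901 at 1 µM and CHIR99021 at 3 µM, which together hold naive pluripotency. Embryoid bodies (EB), aggregates sampled on day 3 and on day 8, had none of these, and neural progenitor cells (NPC) were grown without them in 5 µM retinoic acid, which labels of other samples in the study place at day 4 to day 8. Wild type (WT) and Pcgf2 KO cells were measured at all 4 stages in the first table, and cells of Phc1 KO and of Phc1-SAM KO, the latter without the SAM domain of Phc1, as ESC and NPC in the second. Both libraries of a group are given as replicate 1 and then replicate 2, and means carry the SD with n = 2. The design text speaks of several differentiated lines, but no label tells if the replicates came from separate cultures, lines or clones, so p-values measure the spread between these libraries, which may be technical.

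Several libraries stood apart in ways that touch the results. Summed TPM of 4 Y-linked genes (Ddx3y, Eif2s3y, Kdm5d and Uty) lay between 2.38 and 5.20 in WT ESC, EB day 3 and NPC, but at 71.8 to 88.5 TPM in WT EB day 8. It lay between 83.5 and 126 TPM in all 8 libraries labelled Pcgf2 KO. Stage and source of the cells cannot be told apart where WT EB day 8 is compared with another WT stage, and genotype and source cannot be told apart between Pcgf2 KO and WT at the other 3 stages. In the second table this sum was 22.8 to 23.7 TPM in Phc1 KO ESC, 5.80 to 8.93 TPM in Phc1-SAM KO ESC and 55.0 to 58.9 in the 4 NPC libraries. Edit and source of the cells therefore cannot be told apart between the Phc1 edits in ESC. Pcgf2 transcript was present at 144 to 284 TPM in libraries labelled Pcgf2 KO against 72.4 to 155 TPM in WT. Phc1 transcript was at 106 to 151 TPM in libraries labelled Phc1 KO, where a sum over a gene cannot show a small edit, so genotypes are those of the labels. NPC labels were set against 8 neural progenitor markers, of which 7 reached 1 TPM in WT NPC, 2 in Pcgf2 KO and Phc1 KO NPC and 3 in Phc1-SAM KO NPC. Their sum was 277 to 346 TPM in WT NPC and 19.2 to 22.9 TPM in the 6 knock-out NPC libraries. The libraries called NPC in the knock-outs are therefore named by their label only.

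Fgf3, Fgf4 and Fgf15 lie side by side on chromosome 7 in the RefSeq annotation of GRCm38.p6, at 144838612 to 144843348, 144861386 to 144865245 and 144896532 to 144900953, a span of 62342 bases. RefSeq promoters, from 250 bases before to 50 after the first listed start, matched 27 of the 38 genes. These were rich in CG pairs, the letters that CpG islands are made of, with a median of 18 (range 3 to 47) against 13 over 17492 protein-coding genes. The promoters of 5 genes are shown, with each CG pair in capitals. They were picked for the reasons given next, which for Dusp6 and Fgfr2 include the sequence itself. Fgf4 and Fgfr3 were those with the widest opposite differences in Pcgf2 KO NPC, Fgf5 rose most on leaving the ESC medium, Dusp6 is a feedback gene with letters of an ETS core, and Fgfr2 has few CG pairs.
Fgf4 (GRCm38.p6, chr7:144861136-144861435, plus strand, 5′ to 3′): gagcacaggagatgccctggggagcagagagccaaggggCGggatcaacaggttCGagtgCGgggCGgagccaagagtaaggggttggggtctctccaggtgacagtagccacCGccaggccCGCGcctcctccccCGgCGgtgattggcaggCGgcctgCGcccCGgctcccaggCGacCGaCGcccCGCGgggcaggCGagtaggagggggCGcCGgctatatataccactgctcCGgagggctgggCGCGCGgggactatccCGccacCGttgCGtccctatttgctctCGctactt
Fgf5 (GRCm38.p6, chr5:98253934-98254233, plus strand, 5′ to 3′): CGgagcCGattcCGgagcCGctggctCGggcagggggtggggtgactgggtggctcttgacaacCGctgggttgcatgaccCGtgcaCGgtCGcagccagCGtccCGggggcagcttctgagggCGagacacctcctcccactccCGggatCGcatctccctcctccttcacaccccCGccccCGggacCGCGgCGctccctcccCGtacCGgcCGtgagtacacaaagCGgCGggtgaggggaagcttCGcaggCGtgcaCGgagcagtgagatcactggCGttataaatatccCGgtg
Fgfr3 (GRCm38.p6, chr5:33721474-33721773, plus strand, 5′ to 3′): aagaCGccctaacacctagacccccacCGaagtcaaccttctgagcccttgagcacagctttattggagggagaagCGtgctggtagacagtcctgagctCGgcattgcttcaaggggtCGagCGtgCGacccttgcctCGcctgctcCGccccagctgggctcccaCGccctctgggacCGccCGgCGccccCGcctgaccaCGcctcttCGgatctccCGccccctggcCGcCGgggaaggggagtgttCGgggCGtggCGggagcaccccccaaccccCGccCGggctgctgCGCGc
Fgfr2 (GRCm38.p6, chr7:130266759-130267058, minus strand, 5′ to 3′): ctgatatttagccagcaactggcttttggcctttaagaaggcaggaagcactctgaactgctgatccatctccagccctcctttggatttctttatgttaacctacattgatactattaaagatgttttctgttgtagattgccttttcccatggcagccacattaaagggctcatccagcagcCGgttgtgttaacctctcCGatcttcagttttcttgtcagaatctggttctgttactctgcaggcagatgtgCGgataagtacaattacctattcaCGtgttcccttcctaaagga
Dusp6 (GRCm38.p6, chr10:99262981-99263280, plus strand, 5′ to 3′): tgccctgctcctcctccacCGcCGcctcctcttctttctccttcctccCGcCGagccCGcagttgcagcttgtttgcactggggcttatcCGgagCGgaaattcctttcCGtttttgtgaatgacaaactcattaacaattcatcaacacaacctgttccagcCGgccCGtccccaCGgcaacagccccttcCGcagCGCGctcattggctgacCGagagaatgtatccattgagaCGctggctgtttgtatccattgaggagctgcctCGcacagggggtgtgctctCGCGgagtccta

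The capitals come 28 times in Fgf4, 29 in Fgf5, 26 in Fgfr3, 19 in Dusp6 and 4 in Fgfr2. Letters of an ETS core, CGGAAG or its complement CTTCCG, were found by a script on either strand in 5 of 27 promoters (Dusp6, Fgf23, Fgfrl1, Spred1 and Spred2), against 17.17% of 27025 promoters of all genes. A GC box, GGGCGG or CCGCCC, was present in 18 of 27 against 35.91%. TATAAA or TTTATA was found in 2 of 27, Fgf5 and Fgf21, against 14.16%. The octamer ATGCAAAT or ATTTGCAT was found in 1 of 27 against 1.754%, and the nuclear receptor half-site AGGTCA or TGACCT in 3 of 27 against 16.04%. Each motif was searched apart, so that matches may overlap. The shares are over promoters of all genes, which had a median of 7 CG pairs. All of the genes described here are protein-coding, a class with a median of 13 over 17492 genes. These counts describe letters in a window and were not tested.

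Of the 38 genes, 19 reached a group mean of 10 TPM in at least 1 of the 12 groups, and 13 had their highest group mean between 1 and 10 TPM. Fgf6, Fgf16, Fgf20, Fgf23 and Spry3 stayed under 1 TPM in every library where they were listed, and Fgf22 had no group mean of 1 TPM. A gene entered the tests where 2 libraries of its table had 1 TPM or more, which held for 32 of 37 genes of the first table and for 26 of 38 genes of the second. The untested genes were Fgf6, Fgf16, Fgf20, Fgf22 and Fgf23 in both tables, and also Fgf5, Fgf8, Fgf9, Fgf12, Fgf14, Fgf21 and Spry3 in the second. Fgf12 and Fgf21 reached 1 TPM only in the 2 WT NPC libraries and entered the tests of the first table through them. Their calls in comparisons with WT NPC are included in the counts below but are no independent support. Log2 fold changes below are on the log2(TPM + 1) scale, which understates those of low genes, with standard errors (SE) or 95% intervals and adjusted p-values (Benjamini-Hochberg over all genes of the table) from limma. A gene is called where the adjusted p is under 0.05. With 2 libraries a group, groups often did not overlap for genes that were not called either. Fgf2 and Fgf8 in Pcgf2 KO against WT NPC are examples. The share of all genes without overlap was not counted, so overlap is given as a description only. Since these are bulk libraries, fewer cells of a type and less RNA per cell cannot be told apart. Dusp6, Fgf1, Fgf2, Fgf7, Fgf12, Fgf13, Fgf14, Fgf15, Fgf17, Fgfr1 and Spred3 overlap another annotated gene, and the labels do not say whether strand was used, so reads of the partner may be counted in them.

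**Figure D1:**
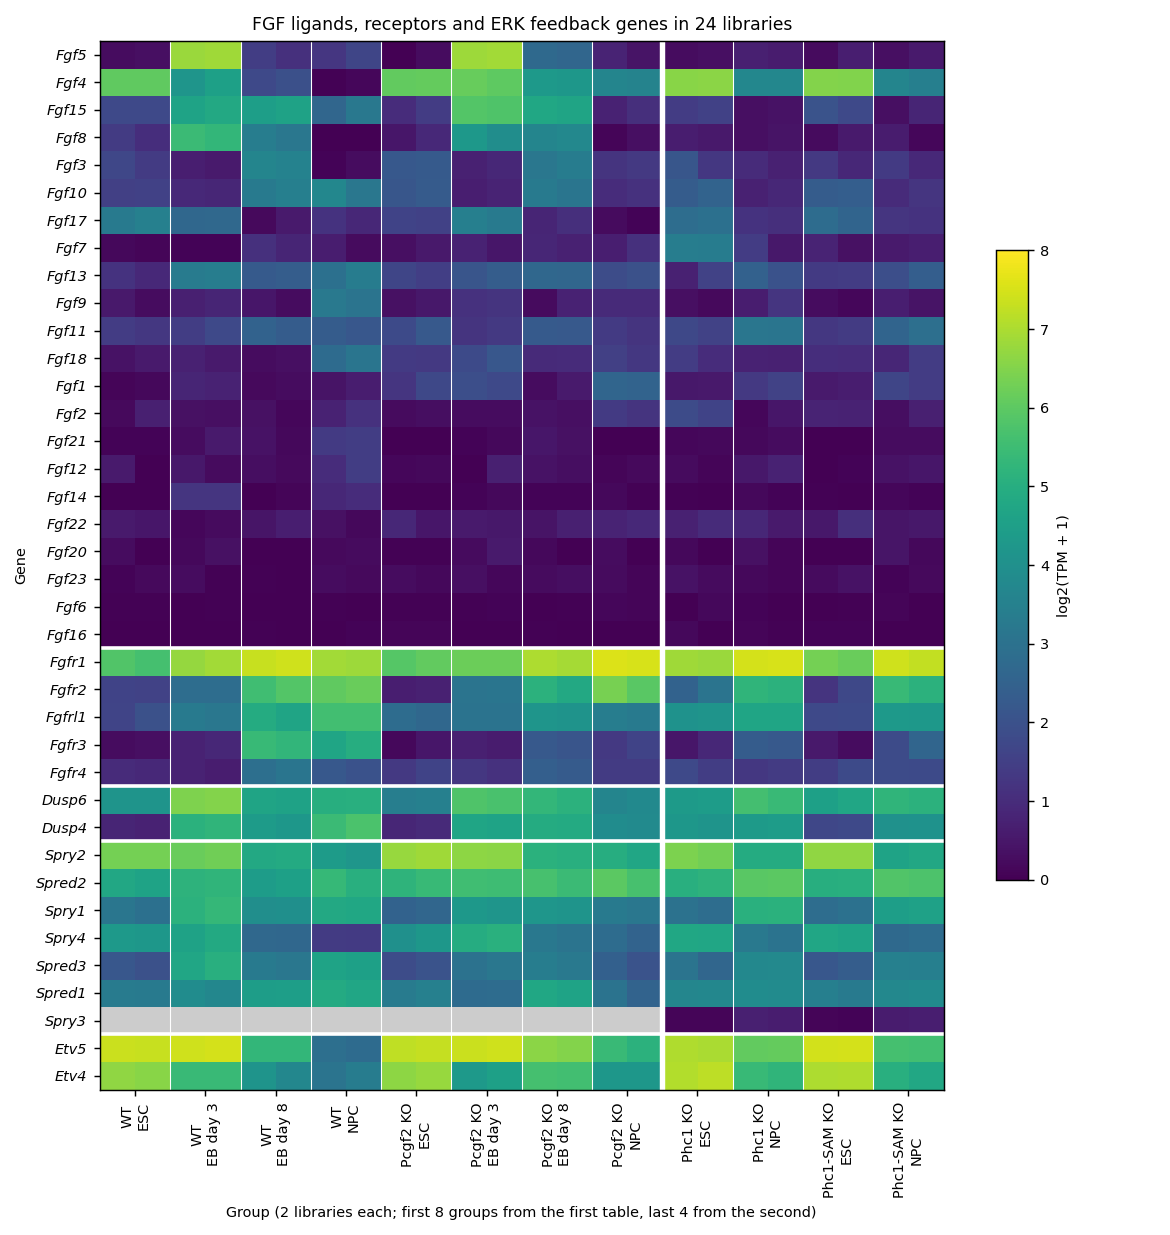
Log2(TPM + 1) as colour for the 38 genes (rows, grouped by role) in each of the 24 libraries (columns, n = 2 a group in 12 groups); grey marks Spry3, which was analysed in the second table. By group mean, Etv4 is highest in Phc1 KO ESC (141 TPM), Fgf5 in the EB day 3 columns (112 and 116 TPM), and Fgfr2 in NPC of Pcgf2 KO and WT (71.1 and 67.9 TPM).

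The first comparison asked what changed in WT cells between ESC and EB day 3, when LIF and both inhibitors were gone. Ligands switched: Fgf4 fell while Fgf5, Fgf8 and Fgf15 rose, and 4 of 5 receptors rose. Feedback genes did not move as a block, since Dusp4, Dusp6, Spry1 and Spred3 rose, Etv4 fell, and Etv5 and Spry2 did not pass the test. Of 32 genes tested, 18 rose and 5 fell, which is 71.9% called against 55.8% of all genes (36.6% higher and 19.1% lower), of which 17938 were tested. The median log2 fold change was 0.46 over the 32 genes and 0.15 over all genes, and with median-of-ratios scaling 15 rose and 7 fell. Removal of the inhibitors, loss of LIF, aggregation and time changed together and cannot be told apart.

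Among the ligands, Fgf5, which marks the epiblast after implantation, stood at 0.195 and 0.263 TPM in WT ESC and 111 and 114 TPM on EB day 3 (log2 fold change 6.53, SE 0.17, adjusted p = 2.3e-10). The groups did not overlap, and Fgf5 went from near 0 to the highest ligand of the stage. Fgf8, which acts in the primitive streak, was at 1.64 and 1.06 TPM and then 42.9 and 38.3 TPM (log2 fold change 4.16, SE 0.18, adjusted p = 7.4e-09). Fgf15, the mouse counterpart of human FGF19, was at 2.37 and 2.43 TPM and then 23.8 and 27.6 TPM (log2 fold change 2.97, SE 0.19, adjusted p = 1.2e-07). Both day 3 libraries of either gene lay above both ESC libraries. Fgf4, the ligand that ESC make for themselves, was at 65.1 and 64.8 TPM in ESC and 17.0 and 22.5 TPM on day 3, without overlap (log2 fold change -1.68, SE 0.12, adjusted p = 2.5e-07). Fgf13, an intracellular member of the family that binds sodium channels rather than receptors, rose from 1.27 and 0.892 TPM to 8.94 and 9.53 TPM (log2 fold change 2.30, SE 0.15, adjusted p = 1.9e-07). Smaller called changes were a rise of Fgf1, Fgf14 and Fgf21 and a fall of Fgf3, Fgf10 and Fgf17, with log2 fold changes of -0.93 to 1.23, and the call of Fgf21 (adjusted p = 0.036) ended without 3 of the 4 libraries in turn.

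Of the receptors, Fgfr1, the main FGF receptor of ESC, was at 56.2 and 49.2 TPM in ESC and 105 and 118 TPM on day 3 (log2 fold change 1.06, SE 0.08, adjusted p = 8.1e-07). Fgfrl1, which binds FGF but lacks the kinase, was at 2.11 and 2.98 TPM and then 8.68 and 7.93 TPM (log2 fold change 1.40, SE 0.13, adjusted p = 2.3e-06). Fgfr2 was at 2.08 and 1.97 TPM and then 6.29 and 6.20 TPM (log2 fold change 1.26, SE 0.15, adjusted p = 2.2e-05). In each of these 3 receptors the day 3 libraries were the higher ones. Fgfr3 was called with a log2 fold change of 0.52 at under 1 TPM, a call that ended without ESC replicate 1 and without EB day 3 replicate 2, and Fgfr4 did not pass (log2 fold change -0.24, interval -0.53 to 0.05, adjusted p = 0.15). Both other scalings called Fgfr4 lower, at -0.40 (median-of-ratios, adjusted p = 0.013) and -0.44 (quantile, adjusted p = 0.0065).

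Of 10 feedback and ETS genes tested, 7 rose on day 3, 1 fell and 2 were not called. Dusp4, a nuclear phosphatase of ERK, was at 0.792 and 0.703 TPM in ESC and 33.8 and 36.9 TPM on day 3 (log2 fold change 4.38, SE 0.11, adjusted p = 1.2e-10). Dusp6, which removes phosphate from ERK in the cytoplasm, was at 16.8 and 16.7 TPM and then 85.7 and 90.3 TPM (log2 fold change 2.33, SE 0.08, adjusted p = 1.1e-09). Neither phosphatase had overlapping libraries. Spry1 went from 7.77 and 6.79 TPM to 34.1 and 39.3 TPM (log2 fold change 2.19, SE 0.10, adjusted p = 7.4e-09) and Spred3 from 3.46 and 2.92 TPM to 25.8 and 31.7 TPM (log2 fold change 2.82, SE 0.15, adjusted p = 4e-08). Spry2 was at 78.9 and 78.7 TPM in ESC and at 71.0 and 75.8 TPM on day 3 (log2 fold change -0.10, interval -0.30 to 0.09, adjusted p = 0.36), and was called lower with median-of-ratios scaling (-0.39, adjusted p = 0.00099). Etv5 was at 164 and 158 TPM and then 169 and 179.5 TPM (log2 fold change 0.11, interval -0.08 to 0.30, adjusted p = 0.29). Etv4 was at 102 and 94.6 TPM and then 41.8 and 41.8 TPM, lower in both day 3 libraries (log2 fold change -1.21, SE 0.14, adjusted p = 1.6e-05). Spry4, Spred1 and Spred2 were called higher by 0.46, 0.51 and 0.47 on the log2 scale, and all 3 calls ended under median-of-ratios scaling and under quantile normalization.

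**Figure D2:**
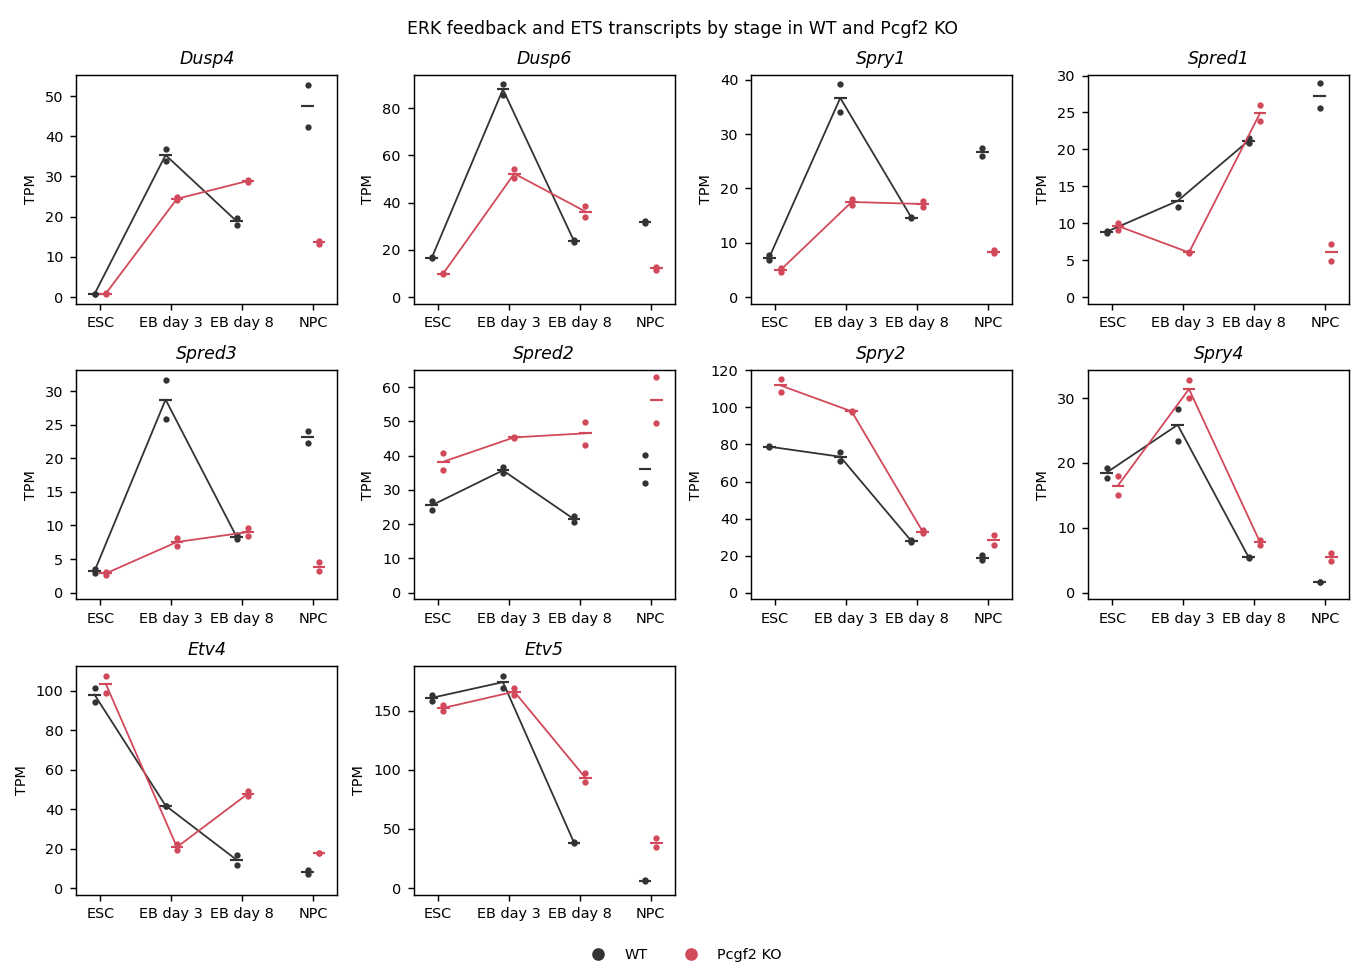
TPM of 10 feedback and ETS genes by stage in WT (dark) and Pcgf2 KO (red), each with its own scale; points are libraries, dashes are group means (n = 2), and lines join the means of ESC, EB day 3 and EB day 8. Etv4, Etv5 and Spry2 start at means of 78.8 TPM or more in WT ESC, while Dusp4 starts near 0 and is highest in WT NPC (47.6 TPM).

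Genes around the pathway changed as well on day 3. Of 24 tested genes for co-receptors and heparan sulphate synthesis, 16 rose and 2 fell (median log2 fold change 0.74, and 0.15 over all genes), led by the heparan sulphate sulphotransferase Hs6st2 (log2 fold change 2.57), the glypican Gpc3 (2.18) and the FGF antagonist Il17rd (2.10). Of 21 tested genes for adaptors and the RAS to ERK cascade, 13 rose and 3 fell, with Braf at 1.57 against a fall of the adaptor Gab1 (-0.99), and with median-of-ratios scaling 7 rose and 6 fell. Of 14 immediate early genes, which serum and ERK induce within minutes, 5 rose and 5 fell. The naive marker sum of 11 genes was 2148 to 2218 TPM in ESC and 288 to 291 TPM on day 3, and the primed epiblast sum of 6 genes was 77.4 to 84.5 TPM and then 1236 to 1357 TPM. The part of this shift in the results was not tested.

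Between EB day 3 and EB day 8 of WT the pattern turned: feedback and ETS genes fell and receptors rose. Of 32 genes tested, 10 rose and 16 fell, 81.2% called against 57.6% of all genes (33.6% higher and 24% lower). All 5 receptors rose, and of 10 feedback genes tested 9 fell and 1, Spred1, rose. The median log2 fold change was -0.48 over the 32 genes and 0.07 over all genes. These values rest on the WT EB day 8 libraries, which differed from the other WT libraries in Y-linked transcripts, and no value can be had without them.

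Fgfr3, a receptor of the neural tube and cartilage, went from 0.688 and 0.847 TPM on day 3 to 40.8 and 37.7 TPM on day 8 (log2 fold change 4.51, SE 0.15, adjusted p = 5.9e-10). Fgfr2 stood at 45.5 and 57.4 TPM on day 8 (log2 fold change 2.85, SE 0.15, adjusted p = 2e-08), Fgfr4 at 6.61 and 7.56 TPM (log2 fold change 2.30, SE 0.13, adjusted p = 5e-08), and both were above their day 3 values in both libraries. Fgfr1 was at 160.4 and 171 TPM (log2 fold change 0.57, SE 0.08, adjusted p = 0.0001) and Fgfrl1 at 29.1 and 24.4 TPM (log2 fold change 1.57, SE 0.13, adjusted p = 7e-07). Among ligands Fgf5 was back at 1.75 and 1.17 TPM (log2 fold change -5.54, SE 0.17, adjusted p = 4e-10). Fgf3, used by the inner ear and tail bud, reached its highest level of all groups at 11.5 and 10.8 TPM (log2 fold change 2.98, SE 0.13, adjusted p = 6.2e-09), and Fgf10, a ligand made by mesoderm, reached 8.90 and 9.84 TPM (log2 fold change 2.48, SE 0.16, adjusted p = 9.6e-08). Fgf15 did not pass, at 21.3 and 23.4 TPM (log2 fold change -0.19, interval -0.60 to 0.22, adjusted p = 0.41).

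Etv5 fell to 38.7 and 38.4 TPM (log2 fold change -2.15, SE 0.09, adjusted p = 2.4e-09) and Etv4 to 16.7 and 11.9 TPM (log2 fold change -1.50, SE 0.14, adjusted p = 2.2e-06). Spry4, which acts on the path to RAF as the other Sprouty proteins do, fell to 5.45 and 5.40 TPM (log2 fold change -2.06, SE 0.13, adjusted p = 8.9e-08), and Dusp6 to 24.2 and 23.3 TPM (log2 fold change -1.84, SE 0.08, adjusted p = 3.8e-09). Libraries of the days did not overlap for any of these 4 genes. Spry1, Spry2, Spred2, Spred3 and Dusp4 fell as well, with log2 fold changes between -1.67 and -0.71. Beside these values, blood markers summed to 4785 to 5438 TPM over 5 genes on day 8 and 1.87 to 2.09 TPM on day 3, fibroblast markers to 960.1 to 1012 TPM and 5.45 to 6.16 TPM, and endoderm markers to 733 to 744 TPM and 10.4 to 11.5 TPM. The part of these cell types in the receptor and feedback values was not tested.

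WT NPC differed from WT ESC in 30 of 32 genes, 22 higher and 8 lower, 93.8% called against 75% of all genes (53.4% higher and 21.6% lower). The 22 include Fgf12 and Fgf21, which entered the tests only through the WT NPC libraries. The median log2 fold change was 1.03 over the 32 genes and 0.46 over all genes. Spred2, at 26.8 and 24.2 TPM in ESC and 40.1 and 32.1 TPM in NPC, lay near that shift of all genes (log2 fold change 0.48, SE 0.13, adjusted p = 0.0057) and turned to -0.16 with median-of-ratios scaling, which brings the median of all genes to 0. Fgf4 was at 0.0224 and 0.0917 TPM in WT NPC (log2 fold change -5.96, SE 0.12, adjusted p = 4.8e-12), the lowest of its 12 groups. Etv5 was at 6.60 and 5.93 TPM (log2 fold change -4.48, SE 0.09, adjusted p = 4.5e-12), Etv4 at 7.38 and 9.28 TPM (log2 fold change -3.42, SE 0.14, adjusted p = 1e-09) and Spry4 at 1.60 and 1.59 TPM (log2 fold change -2.91, SE 0.13, adjusted p = 2.1e-09). Both NPC libraries of each of these 4 genes were below both ESC libraries. Fgf8 was listed at 0 in both WT NPC libraries. Fgf9, a ligand of neurons and glia among other cells, stood at 8.41 and 7.38 TPM (log2 fold change 2.74, SE 0.18, adjusted p = 4.9e-08), and Fgf18, a ligand of bone, lung and midbrain development, at 5.95 and 7.62 TPM (log2 fold change 2.48, SE 0.15, adjusted p = 3.7e-08). Both were highest here of all groups. Beside these values, core pluripotency genes summed to 2163 to 2279.5 TPM in WT ESC and 35.6 to 48.6 TPM in WT NPC, blood markers to 1.14 to 1.45 TPM and 564 to 586 TPM, and endoderm markers to 1.90 to 2.11 TPM and 133 to 177 TPM. The part of these cell types in the results was not tested.

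All 5 receptors were higher in WT NPC than in ESC. Fgfr1 was at 118.7 and 113 TPM, Fgfr2 at 65.1 and 70.6 TPM, Fgfrl1 at 47.0 and 46.5 TPM and Fgfr3 at 25.3 and 30.8 TPM. Against ESC, Fgfr3 rose by 4.55, Fgfr2 by 4.51, Fgfrl1 by 3.76, Fgfr4 by 1.16 and Fgfr1 by 1.12 on the log2 scale. Dusp4 and Spred1 had their highest group mean of all 12 groups in WT NPC, Dusp4 at 42.4 and 52.8 TPM (log2 fold change 4.79, SE 0.11, adjusted p = 1.3e-11) and Spred1 at 28.9 and 25.6 TPM (log2 fold change 1.52, SE 0.14, adjusted p = 1e-06). Dusp6 was above ESC at 31.3 and 32.3 TPM (log2 fold change 0.89, SE 0.08, adjusted p = 7.9e-07), a call that ended under quantile normalization (adjusted p = 0.058). Against WT EB day 8, which had no retinoic acid, 16 genes were higher and 12 lower in NPC, 87.5% called against 58.2% of all genes (38.1% higher and 20.1% lower). The 16 again include Fgf12 and Fgf21. Fgfr3, Fgfr4 and Fgfr1 were lower there by 0.48, 0.90 and 0.51 on the log2 scale, and the call of Fgfr3 ended without NPC replicate 1 and without EB day 8 replicate 1. The difference of WT EB day 8 in Y-linked transcripts bears on all of these values. Around the pathway, 22 of 24 co-receptor and heparan sulphate genes rose and 2 fell from ESC to NPC, led by Gpc3 (log2 fold change 5.48) and Gpc6 (4.30).

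**Figure D3:**
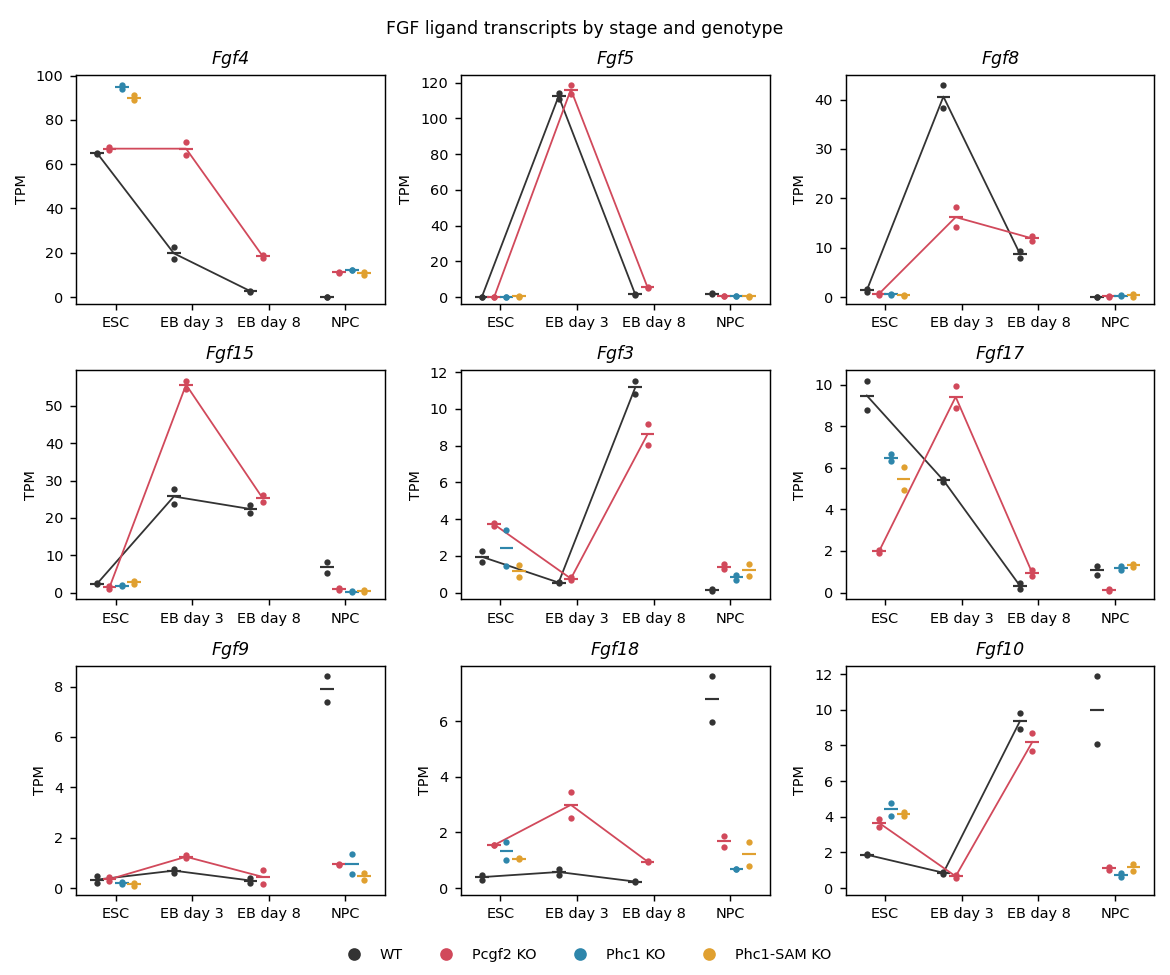
TPM of 9 ligands by stage in WT, Pcgf2 KO, Phc1 KO and Phc1-SAM KO, each with its own scale; points are libraries, dashes are group means (n = 2), and lines join the means of ESC, EB day 3 and EB day 8. Fgf5 peaks on EB day 3 in WT and Pcgf2 KO (112 and 116 TPM), and Fgf9 and Fgf18 are highest in WT NPC (7.90 and 6.79 TPM).

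Libraries labelled Pcgf2 KO were compared with WT at each stage. The differences cannot be assigned to the edit in ESC, EB day 3 and NPC, where genotype and source of the cells cannot be told apart. In ESC most differences were small. Of 32 genes tested, 11 were higher and 6 lower, 53.1% called against 36% of all genes (24.9% higher and 11% lower), and 2 had a log2 fold change of 1 or more in size, Fgf1 and Fgf17. The count fell to 10 with only the ESC libraries in the fit, 7 instead of 11 were higher without WT replicate 2 or without Pcgf2 KO replicate 2, and with quantile normalization 8 were higher and 8 lower. The median log2 fold change was 0.04 over the 32 genes and 0.10 over all genes. Fgf17, a relative of Fgf8, was at 8.76 and 10.2 TPM in WT and 2.07 and 1.89 TPM in Pcgf2 KO ESC (log2 fold change -1.81, SE 0.16, adjusted p = 7.2e-06). Dusp6 was at 16.8 and 16.7 TPM in WT and 9.66 and 10.2 TPM in Pcgf2 KO (log2 fold change -0.70, SE 0.08, adjusted p = 4.7e-05), lower in both knock-out libraries. Fgfr2 was lower as well, at 0.609 and 0.680 TPM (log2 fold change -0.88, SE 0.15, adjusted p = 0.00078), and Spry2 was higher, at 108 and 115 TPM (log2 fold change 0.50, SE 0.09, adjusted p = 0.0012). Fgf4 did not pass, at 66.3 and 67.7 TPM (log2 fold change 0.04, interval -0.21 to 0.30, adjusted p = 0.82), and neither did Etv4 (log2 fold change 0.08, interval -0.22 to 0.38, adjusted p = 0.73) or Etv5 (log2 fold change -0.08, interval -0.27 to 0.11, adjusted p = 0.53). Etv5 was called lower with median-of-ratios scaling (-0.27, adjusted p = 0.013).

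On EB day 3, Fgf4 and Fgf15 were higher in Pcgf2 KO than in WT, while Fgf8, Fgfr1 and 6 feedback and ETS genes were lower. Of 32 genes tested, 8 were higher and 10 lower, 56.2% called against 48.6% of all genes (16.7% higher and 31.9% lower), with a median log2 fold change of -0.07 over the 32 genes and -0.11 over all genes. With median-of-ratios scaling 12 were higher and 10 lower. Fgf4 was at 69.9 and 64.2 TPM in Pcgf2 KO and 17.0 and 22.5 TPM in WT (log2 fold change 1.72, SE 0.12, adjusted p = 6.1e-07), without overlap, beside 66.3 and 67.7 TPM in Pcgf2 KO ESC. Its neighbour Fgf15 was at 56.8 and 54.6 TPM in Pcgf2 KO and 23.8 and 27.6 TPM in WT (log2 fold change 1.09, SE 0.19, adjusted p = 0.00056). Fgf3, on the other side of Fgf4, did not pass, at 0.666 and 0.853 TPM (log2 fold change 0.19, interval -0.11 to 0.48, adjusted p = 0.28). Fgf5 did not pass either, at 114 and 118.6 TPM in Pcgf2 KO, where the libraries of the genotypes overlapped (log2 fold change 0.05, interval -0.34 to 0.43, adjusted p = 0.86). Fgf8 was lower, at 18.2 and 14.1 TPM against 42.9 and 38.3 TPM in WT (log2 fold change -1.28, SE 0.18, adjusted p = 0.00015), and so was Fgfr1, at 72.4 and 72.1 TPM against 105 and 118 TPM (log2 fold change -0.61, SE 0.08, adjusted p = 0.00011).

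Of 10 feedback and ETS genes tested on EB day 3, 6 were lower, 1 higher and 3 not called. Spred3 was at 7.00 and 8.07 TPM in Pcgf2 KO against 25.8 and 31.7 TPM in WT (log2 fold change -1.80, SE 0.15, adjusted p = 3.6e-06), and Spry1 at 18.1 and 16.9 TPM against 34.1 and 39.3 TPM (log2 fold change -1.02, SE 0.10, adjusted p = 7.1e-06). Dusp6 was at 54.1 and 50.5 TPM against 85.7 and 90.3 TPM (log2 fold change -0.74, SE 0.08, adjusted p = 1.7e-05). Spred1, Etv4 and Dusp4 were lower by 0.99, 0.98 and 0.51 on the log2 scale, of which the call of Dusp4 ended under quantile normalization (adjusted p = 0.051). Etv5 did not pass, at 163 and 169 TPM (log2 fold change -0.07, interval -0.26 to 0.12, adjusted p = 0.56), and Spry2 was higher, at 98.1 and 97.7 TPM (log2 fold change 0.41, SE 0.09, adjusted p = 0.0027). Around the pathway, 13 of 21 cascade genes were lower and 2 higher, and 15 of 24 co-receptor genes were lower and 3 higher. Of all genes, 31.9% were lower and 16.7% higher. The median log2 fold change was -0.40 over the cascade genes, -0.47 over the co-receptor genes and -0.11 over all genes. The naive marker sum was 738 to 771 TPM in Pcgf2 KO against 288 to 291 TPM in WT, and the primed epiblast sum 804 to 812 TPM against 1236 to 1357 TPM. Of 11 naive markers 10 were called higher and 0 lower. The 6 primed epiblast genes did not share a direction, with 3 called lower and 2 higher. The part of these marker differences in the results was not tested.

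On EB day 8, 6 of 10 feedback and ETS genes were higher in Pcgf2 KO and none lower, while all 5 receptors were lower. Of 32 genes tested, 10 were higher and 5 lower, 46.9% called against 37.7% of all genes (20.6% higher and 17.1% lower), with a median log2 fold change of 0.19 over the 32 genes and 0.04 over all genes. Fgfr3 was at 3.75 and 3.35 TPM in Pcgf2 KO against 40.8 and 37.7 TPM in WT (log2 fold change -3.15, SE 0.15, adjusted p = 9.8e-08). The other receptors were lower by 0.42 (Fgfr1) to 0.71 (Fgfr2) on the log2 scale. Etv4 was at 49.3 and 46.5 TPM against 16.7 and 11.9 TPM (log2 fold change 1.69, SE 0.14, adjusted p = 3.6e-06), Etv5 at 96.9 and 89.7 TPM against 38.7 and 38.4 TPM (log2 fold change 1.25, SE 0.09, adjusted p = 1.1e-06) and Fgf4 at 19.1 and 17.7 TPM against 2.41 and 2.85 TPM (log2 fold change 2.42, SE 0.12, adjusted p = 1e-07). None of these groups overlapped. Spred2, which like the other Spred proteins acts on the path to RAF, was at 49.8 and 43.3 TPM against 20.6 and 22.3 TPM. Spred2, Dusp4, Dusp6 and Spry4 were called higher as well, by 0.44 to 1.08, and the call of Spry4 ended without 3 of the 4 libraries in turn. Blood markers stood at 239.8 to 262 TPM in Pcgf2 KO against 4785 to 5438 TPM in WT, fibroblast markers at 147 to 164 TPM against 960.1 to 1012 TPM, and core pluripotency genes at 422 to 429.6 TPM against 102 to 125 TPM. The Y-linked sum was 95.3 to 108 TPM in Pcgf2 KO and 71.8 to 88.5 TPM in WT at this stage. The part of these cell types in the values was not tested.

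Of the 4 stages, NPC had the most called genes between libraries labelled Pcgf2 KO and WT. Of 32 genes tested, 10 were higher and 19 lower, 90.6% called against 66.2% of all genes (31.5% higher and 34.7% lower), with a median log2 fold change of -0.87 over the 32 genes and -0.03 over all genes. Higher were the ligands Fgf1, Fgf3, Fgf4 and Fgf7, the receptor Fgfr1, and Etv4, Etv5, Spry2, Spry4 and Spred2. The call of Fgf7 (log2 fold change 0.45, adjusted p = 0.049) ended under both other scalings. The genes that were lower included 11 genes counted as ligands, the intracellular Fgf11 to Fgf14 among them, 3 receptors and 5 feedback genes. Of these ligands, Fgf12 and Fgf21 entered the tests only through the WT NPC libraries, so their calls are no independent support.

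Fgf4 was at 11.4 and 11.0 TPM in Pcgf2 KO NPC against 0.0224 and 0.0917 TPM in WT NPC (log2 fold change 3.53, SE 0.12, adjusted p = 3.1e-10). Of its neighbours, Fgf3 was higher too, at 1.31 and 1.53 TPM against 0.0602 and 0.215 TPM (log2 fold change 1.09, SE 0.13, adjusted p = 2e-05), and Fgf15 was lower, at 0.711 and 1.13 TPM against 5.28 and 8.30 TPM (log2 fold change -2.002, SE 0.19, adjusted p = 1.8e-06). The 3 adjacent genes thus did not share a direction. Fgf9 was at 0.935 and 0.946 TPM (log2 fold change -2.19, SE 0.18, adjusted p = 4.9e-07), Fgf18 at 1.89 and 1.47 TPM (log2 fold change -1.53, SE 0.15, adjusted p = 3.4e-06) and Fgf10 at 1.04 and 1.18 TPM against 11.9 and 8.06 TPM in WT (log2 fold change -2.36, SE 0.16, adjusted p = 9.3e-08). Each was lower in both knock-out libraries, and Fgf21, a hormone-like FGF, was listed at 0 in both Pcgf2 KO NPC libraries against 1.55 and 1.75 TPM in WT. Fgf2 (log2 fold change 0.32, interval -0.05 to 0.70, adjusted p = 0.11) and Fgf8 did not pass, though Fgf2 was called higher without WT NPC replicate 2 (0.51, adjusted p = 0.040).

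The receptors split. Fgfr3 was at 1.51 and 2.02 TPM against 25.3 and 30.8 TPM in WT (log2 fold change -3.39, SE 0.15, adjusted p = 3.1e-09) and Fgfrl1 at 9.56 and 8.55 TPM against 47.0 and 46.5 TPM (log2 fold change -2.25, SE 0.13, adjusted p = 2.1e-08). Fgfr1 was higher, at 189 and 183 TPM against 118.7 and 113 TPM (log2 fold change 0.68, SE 0.08, adjusted p = 2.1e-05). Fgfr2 did not pass, at 81.0 and 61.2 TPM against 65.1 and 70.6 TPM, with libraries that overlapped (log2 fold change 0.05, interval -0.27 to 0.38, adjusted p = 0.77). From its own ESC, Fgfr2 rose in Pcgf2 KO from 0.609 and 0.680 TPM (log2 fold change 5.44, SE 0.15, adjusted p = 1.3e-10), the largest change of the 32 genes in that comparison. There 13 rose and 11 fell, 75% called against 66.8% of all genes (47.5% higher and 19.3% lower), but 7 rose and 13 fell with median-of-ratios scaling and 6 rose and 14 fell with quantile normalization.

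The feedback genes split too. Etv5 was at 42.1 and 34.4 TPM in Pcgf2 KO against 6.60 and 5.93 TPM in WT (log2 fold change 2.43, SE 0.09, adjusted p = 5.6e-10), Etv4 at 17.9 and 17.8 TPM against 7.38 and 9.28 TPM (log2 fold change 1.02, SE 0.14, adjusted p = 3.9e-05) and Spry4 at 6.16 and 4.82 TPM against 1.60 and 1.59 TPM (log2 fold change 1.31, SE 0.13, adjusted p = 2.6e-06). Spred3 was lower at 4.51 and 3.16 TPM against 24.1 and 22.2 TPM (log2 fold change -2.34, SE 0.15, adjusted p = 9.4e-08), as were Spred1 at 7.22 and 4.90 TPM against 28.9 and 25.6 TPM (log2 fold change -2.02, SE 0.14, adjusted p = 1.2e-07) and Dusp4 at 13.97 and 13.3 TPM against 42.4 and 52.8 TPM (log2 fold change -1.73, SE 0.11, adjusted p = 5e-08). Spry1 and Dusp6 were lower by 1.57 and 1.32 on the log2 scale. No library of these 8 genes crossed between the groups, which was also so for Fgf2 and Fgf8, not called here.

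**Figure D4:**
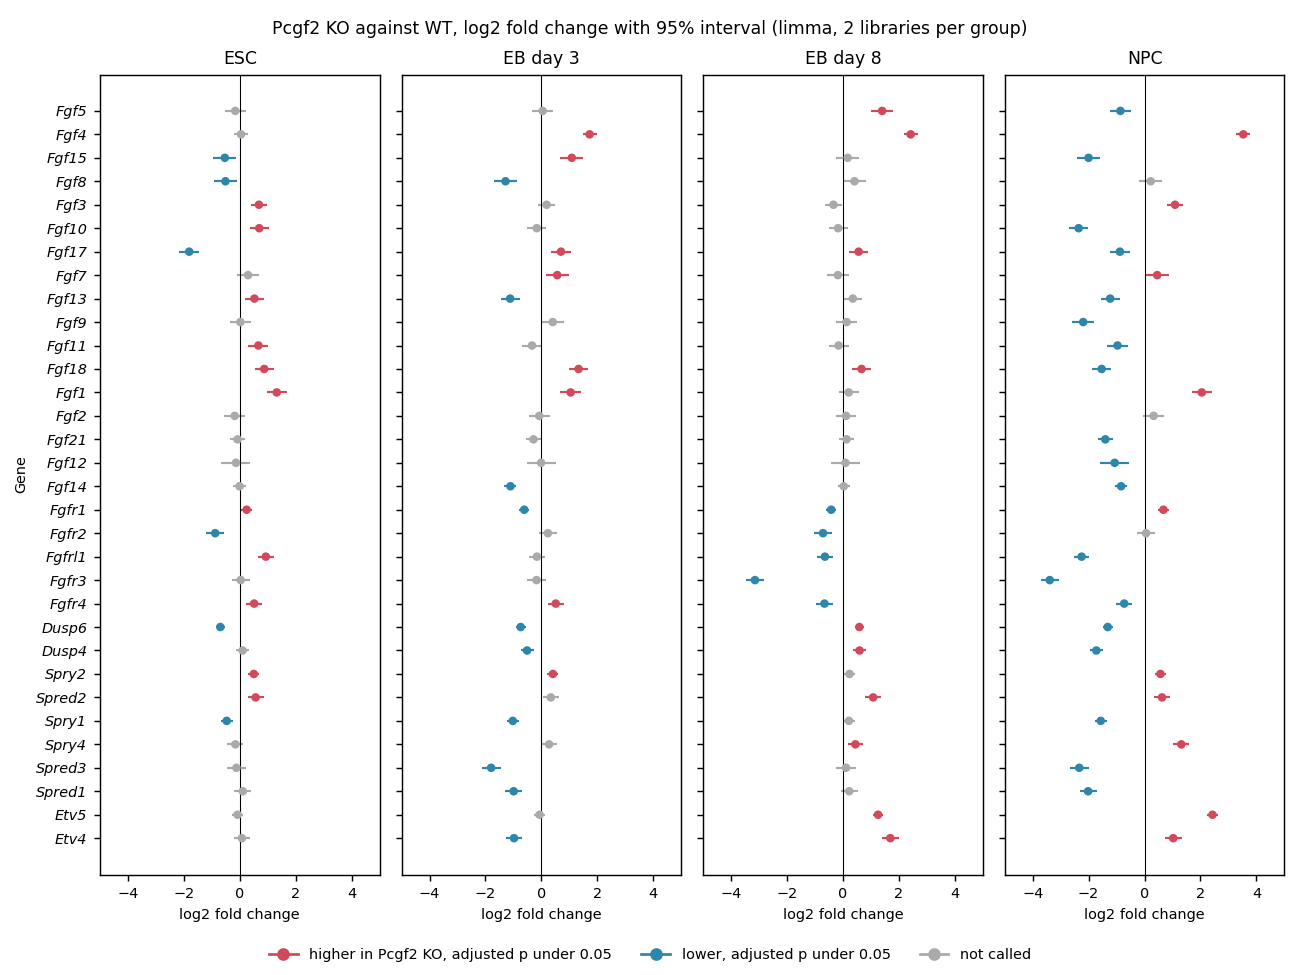
Log2 fold change of log2(TPM + 1) with its 95% interval for Pcgf2 KO against WT, per gene and stage. Fgf4 lies near 0 in ESC (0.04) and to the right at the other stages (1.72 to 3.53), and Fgfr3 lies to the left on EB day 8 (-3.15) and in NPC (-3.39).

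Around the pathway in NPC, 19 of 24 co-receptor and heparan sulphate genes were lower and 2 higher. The glypicans Gpc6 (log2 fold change -3.55), Gpc3 (-3.42) and Gpc2 (-3.36) led the fall, and the syndecan Sdc4 rose (2.99). Of the 8 other MAP kinase phosphatases 5 were higher and 2 lower, with Dusp9, a phosphatase of ERK, at 627 ± 25 TPM against 29.7 ± 3.3 TPM (log2 fold change 4.36, SE 0.10, adjusted p = 2.2e-11). The adaptor Gab1 was higher (2.19), but of 21 adaptor and cascade genes tested 7 were higher and 10 lower. Their median log2 fold change was -0.28, and -0.03 over all genes. Of 14 immediate early genes 8 were higher and 4 lower, with Junb at 2.56 and Fos at 2.22. Neural progenitor markers summed to 19.2 to 20.9 TPM in Pcgf2 KO against 277 to 346 TPM in WT NPC, with Sox1, Hes5, Pax3, Pax7 and Neurog2 under 1 TPM in the knock-out and Olig2 under 1 TPM in both. Naive markers summed to 1020.0 to 1136 TPM against 38.2 to 43.7 TPM, core pluripotency genes to 622 to 638 TPM against 35.6 to 48.6 TPM, and blood markers to 2.43 to 3.00 TPM against 564 to 586 TPM. The part of these cell types in the FGF values was not tested.

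Whether a step differed between genotypes was tested as the Pcgf2 KO step minus the WT step in the same model. From ESC to EB day 3, 16 of 32 genes differed, 4 with a positive and 12 with a negative difference, 50% against 39.6% of all genes (8.54% positive and 31.1% negative). With median-of-ratios scaling or quantile normalization 6 were positive and 9 negative, and the median difference over all genes was -0.24 as deposited. Fgf17 had the largest difference, at 8.76 and 10.2 TPM and then 5.33 and 5.47 TPM in WT but 2.07 and 1.89 TPM and then 9.95 and 8.87 TPM in Pcgf2 KO (difference 2.51, adjusted p = 1.4e-05). Fgf4 differed by 1.68 (adjusted p = 2.4e-05), Spred3 by -1.68 (adjusted p = 0.00015) and Fgfr1 by -0.86 (adjusted p = 0.00022). The step of Fgf5 did not pass (difference 0.21, adjusted p = 0.55), and neither did that of Dusp6 (difference -0.04, adjusted p = 0.8) or Etv5 (difference 0.01, adjusted p = 0.96). Dusp6 passed with quantile normalization (0.36, adjusted p = 0.033) and Etv5 with median-of-ratios scaling (0.37, adjusted p = 0.020).

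From EB day 3 to EB day 8, 22 of 32 genes differed, 13 positive and 9 negative, 68.8% against 38.8% of all genes (26.2% positive and 12.6% negative), but the negative count was less stable than the positive one. It was 4 with a pseudocount of 0.1, 5 without the filter on low values, and 4 to 6 with any 1 of the 8 libraries left out, where 13 or 14 were positive. Etv4 had a difference of 2.67 (adjusted p = 3.5e-06) and Fgfr3 of -2.97 (adjusted p = 3e-06). All 8 feedback and ETS genes that passed were positive and all 4 receptors that passed were negative, of which the call of Fgfrl1 (adjusted p = 0.049) ended without 7 of the 8 libraries in turn. EB day 8 and NPC are not successive stages but differ in retinoic acid, and for them the difference NPC minus EB day 8 was compared between genotypes. Between EB day 8 and NPC, 26 of 32 differed, 8 positive and 18 negative, 81.2% against 55.5% of all genes (25% positive and 30.6% negative), with Spred3 at -2.44 (adjusted p = 2.5e-06) and Dusp4 at -2.32 (adjusted p = 1.9e-07). The difference of Fgfr3 did not pass there (-0.24, adjusted p = 0.35). Both of these comparisons rest on the WT EB day 8 libraries.

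In the second table, libraries labelled Phc1 KO were compared with those labelled Phc1-SAM KO. Their Y-linked sums given above differed in ESC, so that edit and source of the cells cannot be told apart at that stage. In ESC, 8 of 26 genes were higher in libraries labelled Phc1 KO and 2 lower, 38.5% called against 43.8% of all genes (30.9% higher and 12.8% lower), of which 15775 were tested, so that the share was below that of all genes. The median log2 fold change was 0.14 over the 26 genes and 0.13 over all genes. With median-of-ratios scaling 6 were higher and 4 lower, and with quantile normalization 6 and 5. Without Phc1 KO ESC replicate 1, 5 instead of 8 were higher. Fgf7, a ligand that mesenchyme makes for epithelium, was at 9.57 and 9.35 TPM in Phc1 KO and 0.725 and 0.290 TPM in Phc1-SAM KO ESC (log2 fold change 2.81, SE 0.30, adjusted p = 0.00042). Dusp4 was at 17.7 and 16.7 TPM against 2.23 and 2.42 TPM (log2 fold change 2.45, SE 0.08, adjusted p = 3e-06), and Fgfrl1 at 16.1 and 16.5 TPM against 2.42 and 2.47 TPM (log2 fold change 2.33, SE 0.07, adjusted p = 2.5e-06). All libraries of these 3 genes were higher in Phc1 KO. Fgfr2, Fgf2 and Fgfr1 were higher by 1.32, 0.95 and 0.57, of which Fgf2 did not pass with a pseudocount of 0.1 (adjusted p = 0.065). Fgf2 entered the test through the Phc1 KO ESC libraries, where it is high, and had means of 0.249 to 0.706 TPM in the other groups. Those means were 0.507 to 1.06 TPM for Fgf7. Without both Phc1 KO ESC libraries 24 genes were tested, so the calls of Fgf2 and Fgf7 are no independent support. Etv5 was at 132 and 126 TPM against 175 and 176 TPM (log2 fold change -0.44, SE 0.04, adjusted p = 0.00023) and Spry2 at 84.1 and 76.9 TPM against 101 and 101 TPM (log2 fold change -0.32, SE 0.07, adjusted p = 0.0081), both lower in Phc1 KO. Fgf4 did not pass, at 93.8 and 95.7 TPM against 91.1 and 89.0 TPM (log2 fold change 0.07, interval -0.09 to 0.23, adjusted p = 0.43).

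The Phc1 KO ESC libraries also held 347 to 362 TPM of 5 fibroblast markers, with 4 of 5 at 1 TPM or more, against 13.9 to 14.5 TPM in Phc1-SAM KO ESC and 0.862 to 1.11 TPM in WT ESC. Core pluripotency genes summed to 1635 to 1647 TPM against 2529 to 2560.5 TPM. Of 25 co-receptor and heparan sulphate genes 19 were higher and none lower. Of 13 immediate early genes tested 8 were higher and 2 lower, with Ier3 at a log2 fold change of 3.37 and Fosl1 at 2.87. The part of fibroblast-like RNA in these values was not tested. In Phc1 KO, Dusp4 did not pass between ESC and NPC (log2 fold change 0.21, interval 0.02 to 0.39, adjusted p = 0.051), while in Phc1-SAM KO it rose from 2.23 and 2.42 TPM to 15.6 and 15.98 TPM (log2 fold change 2.34, SE 0.08, adjusted p = 7.9e-07).

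In NPC few genes differed between the edits of Phc1. Of 26 genes 3 were higher in Phc1 KO and 0 lower, 11.5% called against 4.04% of all genes (2.52% higher and 1.52% lower): Spry1 at 33.0 and 33.5 TPM against 21.3 and 22.7 TPM (log2 fold change 0.58, SE 0.09, adjusted p = 0.023), Etv5 at 66.6 and 68.0 TPM against 49.0 and 46.8 TPM (log2 fold change 0.48, SE 0.04, adjusted p = 0.004) and Fgfrl1 at 25.0 and 24.8 TPM against 18.7 and 18.3 TPM (log2 fold change 0.41, SE 0.07, adjusted p = 0.029). The median log2 fold change was 0.16 over the 26 genes and 0.04 over all genes. Leaving out any 1 of the 4 libraries left 1 call, that of Etv5. Fgf4 did not pass (log2 fold change 0.16, interval -0.0049 to 0.32, adjusted p = 0.25), and neither did Fgfr2 (log2 fold change -0.07, interval -0.61 to 0.46, adjusted p = 0.9) or Fgfr3 (log2 fold change 0.06, interval -0.60 to 0.72, adjusted p = 0.94). In the same comparison 6 of 7 endoderm markers were lower in Phc1 KO, with sums of 80.3 to 86.6 TPM against 104 to 108 TPM, and 6 of 11 naive markers were higher, with sums of 981 to 982 TPM against 767 to 775 TPM. Core pluripotency genes, 2 of 3 called higher, summed to 759 to 764 TPM against 619 to 626 TPM. The part of these cell types in the 3 calls was not tested. From ESC to NPC, 11 genes rose and 11 fell in Phc1 KO, 84.6% called against 62.8% of all genes (35% higher and 27.8% lower), and 12 rose and 8 fell in Phc1-SAM KO, 76.9% against 67.6% of all genes (43.8% higher and 23.8% lower). Fgf4 fell by 2.88 and 2.96 on the log2 scale, Fgfr2 rose by 2.40 and 3.79 and Spry1 by 2.16 and 1.59. The Y-linked sum given above differed between ESC and NPC in both genotypes, so that stage and source of the cells cannot be told apart. Fibroblast markers fell in Phc1 KO from 347 to 362 TPM to 3.66 to 4.17 TPM, and their part in the values was not tested.

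Levels in NPC can be set side by side across the tables, which were normalized separately, without a test. Fgf4 was at 12.0 and 12.0 TPM in Phc1 KO and 11.4 and 9.95 TPM in Phc1-SAM KO NPC, where Pcgf2 KO had 11.4 and 11.0 TPM and WT 0.0224 and 0.0917 TPM. All 6 knock-out libraries were above both WT libraries. Fgfr3 was at 4.04 and 3.67 TPM and 2.57 and 5.09 TPM in the Phc1 edits against 25.3 and 30.8 TPM in WT, and Etv5 at 66.6 and 68.0 TPM and 49.0 and 46.8 TPM against 6.60 and 5.93 TPM. Spry1 differed among the knock-outs, at 33.0 and 33.5 TPM and 21.3 and 22.7 TPM in the Phc1 edits, 8.65 and 8.06 TPM in Pcgf2 KO and 27.4 and 26.0 TPM in WT. Dusp6 was at 47.8 and 41.4 TPM and 36.5 and 34.0 TPM in the Phc1 edits, 11.5 and 12.8 TPM in Pcgf2 KO and 31.3 and 32.3 TPM in WT. Neural progenitor markers summed to 22.7 to 22.9 TPM in Phc1 KO and 19.9 to 20.3 TPM in Phc1-SAM KO NPC.

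**Figure D5:**
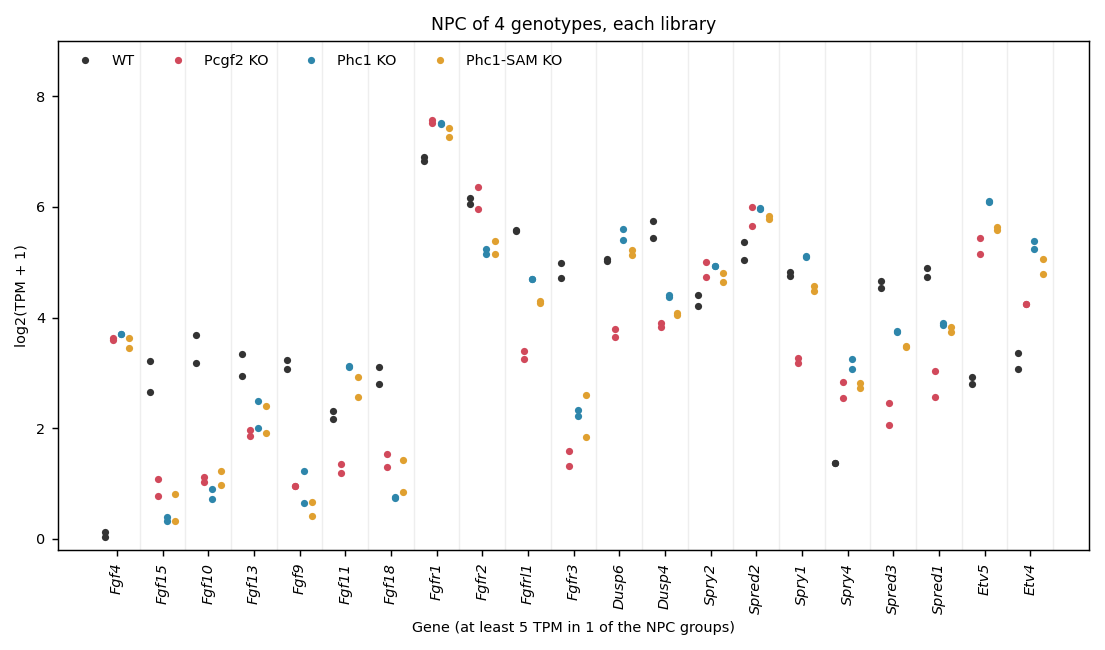
Log2(TPM + 1) in NPC libraries of the 4 genotypes, per gene; points are libraries (n = 2 a group), with WT and Pcgf2 KO from the first table and Phc1 KO and Phc1-SAM KO from the second, which was normalized separately. Fgf4 is at 9.95 to 12.0 TPM in all 6 knock-out libraries against under 0.1 TPM in WT, and Fgfr3 is at 1.51 to 5.09 TPM against 25.3 to 30.8 TPM.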

How the data were processed

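TPM values per gene were deposited by the authors in a pair of tables, with 16 libraries used from the first and 8 from the second. The submitters' processing notes name kallisto, DESeq2, STAR, SAMtools, BWA, deepTools, MACS2 and the build mm10, without roles; versions, annotation, strand use and any summing over transcripts were not given in the sources used here. TPM is a share of a fixed total in each library and keeps no read depth, so the depth is unknown and no counting interval can be given. At 1 TPM or more, libraries of the first table had 13131 to 15374 genes and those of the second 13469 to 14550, and replicates correlated at 0.992 to 0.995 (Pearson's r across genes, log2 scale).

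Samples were grouped by stage and genotype as labelled. Genes at 1 TPM or more in at least 2 libraries of a table were fitted as log2(TPM + 1) with limma 3.58.1 in R 4.3.3 (one mean a group, all groups of a table together, empirical Bayes with a mean trend, two-sided, Benjamini-Hochberg over 17938 and 15775 genes). In all, 16 comparisons were made, each within a table, since the tables were normalized separately. Another 4 columns of the second table, for WT, were not used. Alternatives were a pseudocount of 0.1, no filter, median-of-ratios scaling, quantile normalization, only the groups compared in the fit, a replicate block and leaving out each library. Leaving out both WT EB day 8 or both Phc1 KO ESC libraries was chosen after seeing the data. The fit was tested on simulated data.

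The 38 genes, the wider lists and the markers were chosen with earlier results of these data known. Values of single libraries are given, in at least 1 comparison, for genes with a group mean of 10 TPM or more and a called log2 fold change of 1 or more in size. Fgf1, Fgf7, Fgf9, Fgf10, Fgf13, Fgf17, Fgf18, Fgf21 and Fgfr4 fall outside that rule and were chosen after their values were seen. Of each wider list, named genes come from the 4 called genes with the largest change in the comparison. Promoters and positions are those of RefSeq, build GRCm38.p6.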

Additional observations from a re-analysis of the deposited data

Results flagged for a closer look

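Steps between stages that differed between Pcgf2 KO and WT by a log2 difference of 1 or more in size, with an adjusted p under 0.05 in limma, were picked out among genes with a group mean of 10 TPM or more. From ESC to EB day 3, 7 genes were picked out by this test of the difference between the genotypes. The step was more positive in Pcgf2 KO for Fgf4 (1.68), Fgf15 (1.62) and Fgfr2 (1.11), as log2 differences. It was more negative for Spred3 (-1.68), Spred1 (-1.10), Fgfrl1 (-1.09) and Etv4 (-1.05). The largest adjusted p among them was 0.0016.

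From EB day 3 to EB day 8, 10 genes were picked out by this test of the difference between the genotypes. The step was more positive in Pcgf2 KO for Etv4 (2.67), Spred3 (1.91), Fgf8 (1.70), Fgf5 (1.35), Etv5 (1.32), Dusp6 (1.32), Spry1 (1.24), Spred1 (1.21) and Dusp4 (1.10), as log2 differences. It was more negative for Fgfr3 (-2.97). The largest adjusted p among them was 0.0013. Between EB day 8 and NPC, which differ in retinoic acid and are not successive stages, 12 genes were picked out by this test of the difference between the genotypes. The change from EB day 8 to NPC was more positive in Pcgf2 KO for Fgf3 (1.43), Etv5 (1.17), Fgf4 (1.11) and Fgfr1 (1.10), as log2 differences. It was more negative for Spred3 (-2.44), Dusp4 (-2.32), Fgf5 (-2.26), Spred1 (-2.24), Fgf15 (-2.17), Dusp6 (-1.90), Spry1 (-1.78) and Fgfrl1 (-1.60). The largest adjusted p among them was 0.00013. All values that involve EB day 8 rest on the WT EB day 8 libraries, whose Y-linked transcripts differ from the other WT libraries, and these differences share their WT and Pcgf2 KO libraries from step to step. No group had enough libraries to test for a single library that stands apart.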

How the results depend on the processing

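The count of called genes stayed within 1.5 times the reported count in all comparisons and alternatives, with the following exceptions. For Pcgf2 KO against WT in ESC it was 10 instead of 17 where other groups stayed out of the fit, and where 23 genes were tested. For Phc1 KO against Phc1-SAM KO in NPC it was 1 instead of 3 with a replicate block, and 1 to 1 with each library left out in turn. Over the other comparisons with each library left out, the count ranged from 19 to 22 (WT EB day 3 against ESC), 24 to 26 (WT EB day 8 against EB day 3), 23 to 27 (WT NPC against EB day 8), 27 to 30 (WT NPC against ESC), 12 to 15, 16 to 18, 13 to 14 and 27 to 29 (Pcgf2 KO against WT in ESC, EB day 3, EB day 8 and NPC), 15 to 17, 17 to 19 and 23 to 27 (steps), 20 to 23, 19 to 21 and 20 to 20 (NPC against ESC in Pcgf2 KO, Phc1 KO and Phc1-SAM KO) and 7 to 9 (Phc1 KO against Phc1-SAM KO in ESC).

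Among the values of single genes under alternatives, 3676 kept their direction and their side of the threshold, 227 no longer passed, 7 newly passed and 6 turned. Turned were Spred2 in WT NPC against ESC (-0.16 with median-of-ratios scaling, -0.13 with quantile normalization), Dusp6 in Pcgf2 KO NPC against ESC (-0.11 and -0.24), and, with quantile normalization, Spred1 in Phc1 KO against Phc1-SAM KO ESC (-0.051) and in Phc1-SAM KO NPC against ESC (-0.073). The median of all genes ran from -0.24 to 0.46 over the comparisons as deposited, from -0.05 to 0.02 with median-of-ratios scaling and from -0.09 to 0.06 with quantile normalization. Calls lost numbered 15 with a pseudocount of 0.1, 15 without the filter, 20 and 30 with the scalings, 122 over all libraries left out, and 2 without both WT EB day 8 libraries; the cause was not tested. These numbers leave out genes that no longer entered the test. Without the WT EB day 8 libraries 31 genes were tested, and the count over all members was 15 instead of 17, 17 instead of 18 and 28 instead of 29 for Pcgf2 KO against WT in ESC, EB day 3 and NPC, and 23 instead of 24 for Pcgf2 KO NPC against ESC.

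Replicate numbers are shared by the groups but did not pair them: replicate differences correlated between groups at -0.18 to 0.13 in the first table (1 of 28 pairs above 0.1) and -0.03 to 0.02 in the second (0 of 6). With the replicate number as a block 10 calls were lost, Spry1 (adjusted p = 0.053) and Fgfrl1 (adjusted p = 0.063) of Phc1 KO against Phc1-SAM KO in NPC among them.

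The number of libraries, 2 a group, limits the precision, and depth is unknown. WT EB day 8 and the Pcgf2 KO libraries differ from the other WT libraries in Y-linked transcripts, so stage or genotype and source of the cells cannot be told apart in comparisons with those libraries. The same limit holds for Phc1 KO against Phc1-SAM KO in ESC and for ESC against NPC of each.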
